A study of Ovis aries with 12 samples.

Results

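The genes described here are 8 genes of cholesterol synthesis and its control, HMGCS1, FDPS, IDI1, FDFT1, SQLE, LSS, DHCR7 and INSIG1, measured in the corpus luteum of the ewe. They were chosen by name, and every probe set that the array annotation gives 1 of these symbols alone was used. This found 12 of the 24016 probe sets tested, for 7 of the 8 genes, out of 9155 genes with such a probe set. IDI1 had no probe set with a single symbol and was not analysed here. The set was proposed as a set of biosynthetic enzymes. INSIG1 is not an enzyme but the membrane protein that holds the sterol sensor in the endoplasmic reticulum. Its values are therefore described apart from the other 6 genes, while every count, median or mean over 7 genes includes it.

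The corpus luteum forms in the ovary after ovulation and secretes progesterone, and cholesterol is the starting material for that hormone. Luteal cells take cholesterol up from blood lipoproteins and can also make it from acetyl-CoA, through mevalonate, farnesyl diphosphate, squalene and lanosterol. When sterols in the endoplasmic reticulum are low, SREBP transcription factors are released and switch on most genes of this route, and INSIG1 is part of the brake on that release.

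The study measured luteal RNA on 12 Affymetrix bovine arrays, 1 array and 1 gland per ewe. Pregnant ewes were compared with non-pregnant ewes, and per its title the study asked about genes tied to pregnancy that may protect the gland from luteolysis, its regression at the end of an infertile cycle. There were 4 groups of 3 ewes: day 14 pregnant, day 14 non-pregnant, day 12 pregnant and day 12 non-pregnant. Pregnant ewes had been bred to a fertile ram, while non-pregnant ewes stayed unbred and were heat-checked with a vasectomized ram. The labels name no breed, genotype, age or drug. All glands were snap frozen and their total RNA was extracted with Trizol. Groups were read from the source label, which the sample title contradicts for 9 of the 12 arrays. The number of a gland within its group is only a name.

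Values are log2 expression values from RMA, and a difference of 1 on this scale is a doubling. The description labels name a gene array for 4 arrays and a genome array for 8. The 4 were gland 3 of the day 14 pregnant group, glands 2 and 3 of the day 14 non-pregnant group and gland 3 of the day 12 pregnant group. Over all probe sets the day 14 non-pregnant glands were set off from the rest, with scores of 18.1 to 40.4 on principal component 1 (29.6% of the variance), against -13.0 to -7.00 for the other 9 arrays. The 3′ minus 5′ signal of the actin and GAPDH control probe sets, a measure of RNA quality, was 1.44 to 1.60 in the day 14 pregnant group and 1.29 to 1.43 in the day 14 non-pregnant group. It was 1.57 to 1.60 in the day 12 pregnant group and 1.42 to 1.47 in the day 12 non-pregnant group. As a check of the labelled tissue, all 5 genes on a list of luteal markers (STAR, CYP11A1, HSD3B1, LHCGR and OXT) were above the 25th percentile of probe sets. Their mean level per gland was 11.6 to 11.7 in the day 14 pregnant group and 11.0 to 11.5 in the day 14 non-pregnant group.

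The first steps of the route showed more spread between ewes of a group than between groups. HMGCS1, the synthase that makes HMG-CoA at the entry to the mevalonate pathway, was at 12.09, 11.60 and 11.69 in day 14 pregnant glands, against 11.85, 11.33 and 10.60 in day 14 non-pregnant glands. It was at 12.13, 11.30 and 11.60 in day 12 pregnant glands, against 12.10, 12.01 and 11.53 in day 12 non-pregnant glands. All 4 groups overlapped, and day 14 non-pregnant gland 3 was the lowest of the 12. FDPS, which joins isoprene units into farnesyl diphosphate, was at 10.99, 11.06 and 11.04 in day 14 pregnant glands, against 11.41, 10.58 and 10.17 in day 14 non-pregnant glands. The day 14 pregnant glands were nearly equal, with an SD of 0.0332 (n = 3), and lay inside the range of the day 14 non-pregnant glands, whose SD was 0.633 (n = 3). On day 12 FDPS was at 11.45, 11.05 and 10.86 in pregnant glands, against 11.06, 10.98 and 10.79 in non-pregnant glands. These groups overlapped too.

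FDFT1, or squalene synthase, is the first enzyme committed to sterols, since it takes farnesyl diphosphate away from the other products of the pathway. Its brightest probe set was at 9.73, 8.63 and 9.36 in day 14 pregnant glands, against 8.76, 7.84 and 8.09 in day 14 non-pregnant glands. The groups overlapped only in that day 14 pregnant gland 2 lay below day 14 non-pregnant gland 1. On day 12 it was at 9.68, 8.56 and 8.80 in pregnant glands, against 9.85, 9.65 and 9.19 in non-pregnant glands. All 3 day 14 non-pregnant glands therefore lay below all 3 day 12 non-pregnant glands. A second FDFT1 probe set gave 6.49, 6.10 and 6.41 in day 14 pregnant glands, against 5.78, 5.70 and 5.33 in day 14 non-pregnant glands, with no overlap. The third FDFT1 probe set was dim, with a mean of 2.45 over all arrays, at the 6.62th percentile of probe sets.

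SQLE, or squalene epoxidase, which adds the oxygen needed for ring closure, was at 11.50, 11.28 and 11.40 in day 14 pregnant glands, against 11.58, 10.46 and 10.62 in day 14 non-pregnant glands. It was at 11.62, 10.71 and 11.07 in day 12 pregnant glands, against 11.39, 11.17 and 10.99 in day 12 non-pregnant glands. In the day 14 non-pregnant group 1 gland lay above every day 14 pregnant gland and the other two lay below every one of them. LSS, or lanosterol synthase, which closes the rings, was at 5.19, 5.31 and 5.45 in day 14 pregnant glands, against 5.38, 5.22 and 4.90 in day 14 non-pregnant glands. On day 12 LSS was at 5.20, 4.92 and 5.17 in pregnant glands, against 5.44, 5.34 and 4.92 in non-pregnant glands. LSS had the smallest spread of the 7 genes, and its groups overlapped on both days. DHCR7, which carries out the last reduction to cholesterol in one arm of the route, was at 5.74, 6.08 and 6.07 in day 14 pregnant glands, against 5.80, 5.26 and 5.12 in day 14 non-pregnant glands. It was at 5.98, 5.55 and 5.70 in day 12 pregnant glands, against 5.76, 5.60 and 5.17 in day 12 non-pregnant glands. Day 14 non-pregnant gland 1 again stood with the pregnant glands, above the other two of its group.

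INSIG1 varied most. It was at 10.16, 9.10 and 10.35 in day 14 pregnant glands, against 9.47, 8.42 and 9.70 in day 14 non-pregnant glands. It was at 10.47, 9.07 and 8.86 in day 12 pregnant glands, against 10.54, 9.61 and 9.82 in day 12 non-pregnant glands. The day 12 pregnant glands alone spanned 3.05-fold, and each group overlapped every other. Here the high gland of the day 14 non-pregnant group was gland 3, not gland 1, unlike the 6 enzymes.

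**Figure D1:**
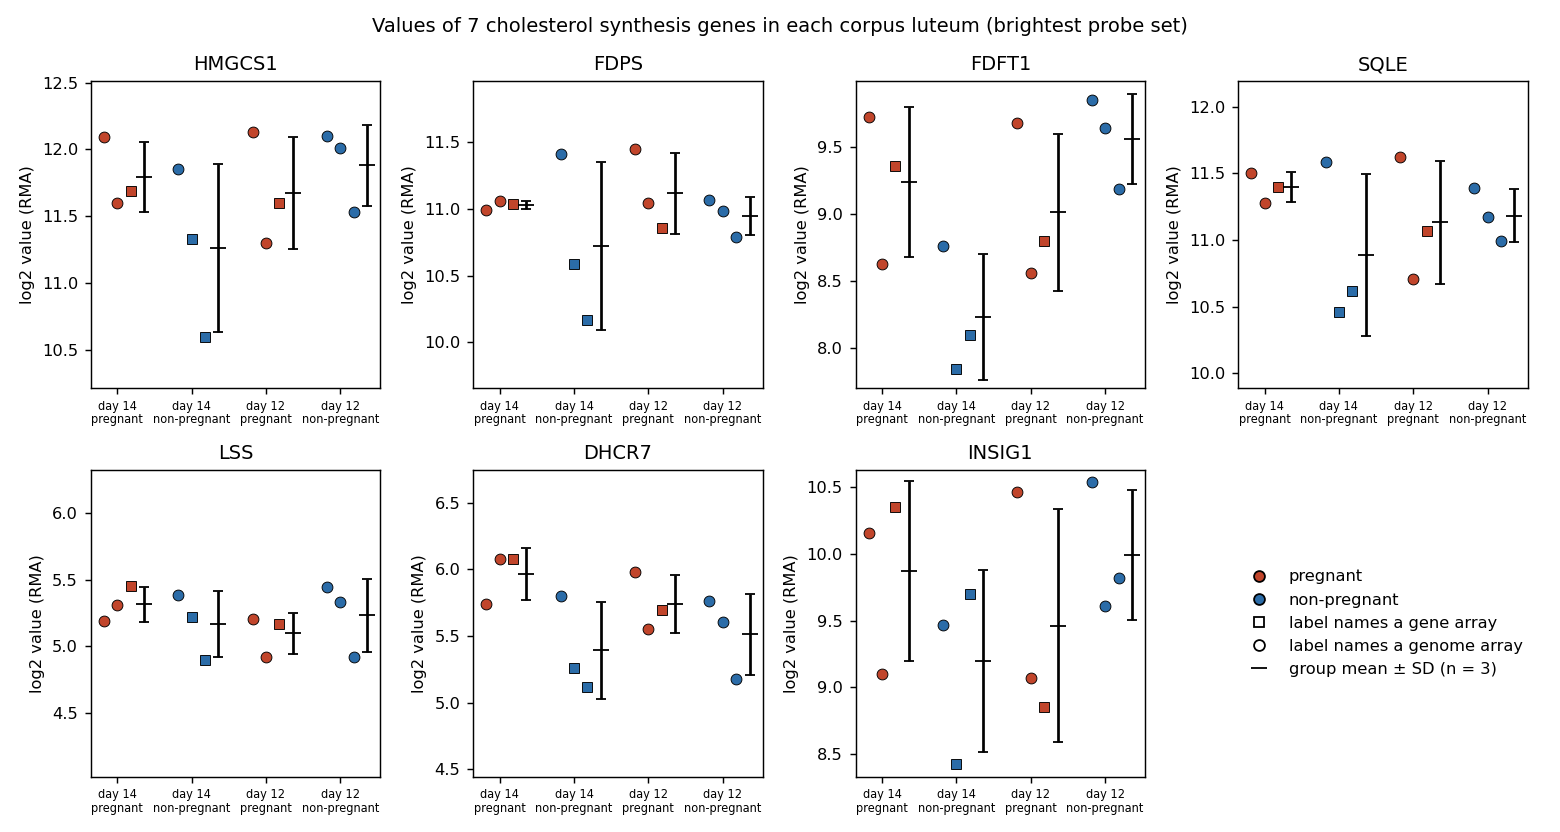
Log2 expression value (vertical axis, a span of equal length in every panel) of each gland for the brightest probe set of 7 genes, by group along the horizontal axis. Red points are pregnant and blue points non-pregnant ewes, squares are arrays whose label names a gene array and circles a genome array, and bars give the group mean ± SD (n = 3). FDPS lies within 10.99 to 11.06 in day 14 pregnant glands and runs between 10.17 and 11.41 in day 14 non-pregnant glands.

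The order of the group means was not the same from gene to gene. Day 14 non-pregnant glands had the lowest mean for 6 of the 7 genes, the exception being LSS, whose lowest mean was in day 12 pregnant glands at 5.10 ± 0.155 (SD, n = 3). The highest mean was in day 14 pregnant glands for SQLE (11.4 ± 0.112), LSS (5.32 ± 0.130) and DHCR7 (5.96 ± 0.192), each with the SD of 3 glands. It was in day 12 non-pregnant glands for HMGCS1 (11.9 ± 0.304), FDFT1 (9.56 ± 0.340) and INSIG1 (9.99 ± 0.487), and in day 12 pregnant glands for FDPS (11.1 ± 0.302). Of the 21 gaps between neighbouring group means, 3 were larger than the SD of both groups. These were 0.78 between day 12 pregnant and day 14 non-pregnant glands for FDFT1, 0.21 between day 14 pregnant and day 12 non-pregnant glands for SQLE, and 0.22 between day 14 and day 12 pregnant glands for DHCR7.

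Pregnancy on day 14 was tested in a limma fit of all 12 arrays with a term for the array name, and p-values were adjusted by Benjamini-Hochberg over all 24016 probe sets. All 7 genes had a positive difference, pregnant minus non-pregnant, with a median of 0.41, against a median of 0.03 over all probe sets, of which 56.6% were above 0. None of the 12 probe sets passed an adjusted p of 0.05 in limma, where 1.45% of all probe sets passed. At an unadjusted p under 0.05 there were 3 of 12, against a background of 15.4%. The groups did not overlap for 1 of 12, against 18.3% of all probe sets. FDFT1 had the largest of the 7 differences, 0.91 ± 0.35 (standard error, 95% interval 0.15 to 1.67, limma adjusted p = 0.237). Its second probe set gave 0.68 ± 0.19 with the smallest adjusted p of the 12, 0.106. DHCR7 was at 0.51 ± 0.20 (adjusted p = 0.251, limma). The differences were 0.61 ± 0.49 for INSIG1 (adjusted p = 0.604), 0.41 ± 0.28 for HMGCS1 (adjusted p = 0.535) and 0.38 ± 0.26 for SQLE (adjusted p = 0.527). FDPS and LSS had the smallest values, 0.15 ± 0.21 and 0.15 ± 0.17. The intervals of these 5 genes ran through 0, and that of INSIG1 reached 1.69.

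The day 14 difference was not alike under both array names. Between arrays whose label names a gene array, 1 pregnant against 2 non-pregnant, all 7 genes were higher in the pregnant gland, by a median of 0.86 (0.39 to 1.40). Between arrays whose label names a genome array, 2 pregnant against 1 non-pregnant, 3 of 7 were higher, with a median of -0.01 (-0.39 to 0.42). The second set rests on day 14 non-pregnant gland 1, which was the highest of its group for all 6 enzymes. FDFT1, DHCR7 and INSIG1 were above 0 under both names, with FDFT1 at 1.40 and 0.42. SQLE, FDPS, LSS and HMGCS1 changed sign. SQLE was at 0.86 among gene arrays and -0.19 among genome arrays, and FDPS at 0.66 and -0.39. LSS was at 0.39 and -0.134, and HMGCS1 at 0.725 and -0.00653. Within the day 14 non-pregnant group, array name and gland cannot be told apart. The luteal marker list and the RNA quality measure given above also differed between these groups. So did a list of 5 granulosa and follicle markers (FSHR, CYP19A1, AMH, INHA and INHBA), whose mean level was 4.53 to 4.70 in day 14 pregnant and 4.94 to 5.65 in day 14 non-pregnant glands. Of these 5, FSHR lay below the 25th percentile of probe sets, none passed in limma, and the median of their differences was 0.01, so not all of them shared the shift of the mean. The 3 measured of 5 macrophage markers (CD68, CSF1R and CD14) had a median difference of -0.44, none passed, and their mean level overlapped, at 6.46 to 7.17 in day 14 pregnant and 6.7 to 7.5 in day 14 non-pregnant glands. Of 6 endothelial markers 1 passed in limma for pregnancy on day 14, with a median difference of -0.000215 over the list. Of 6 smooth muscle and pericyte markers 1 passed as well, with a median of 0.0766. Over all probe sets 1.45% passed. The part of these lists and of RNA quality in the difference was not tested. In RNA from whole glands fewer cells of a type and less RNA per cell cannot be told apart.

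**Figure D2:**
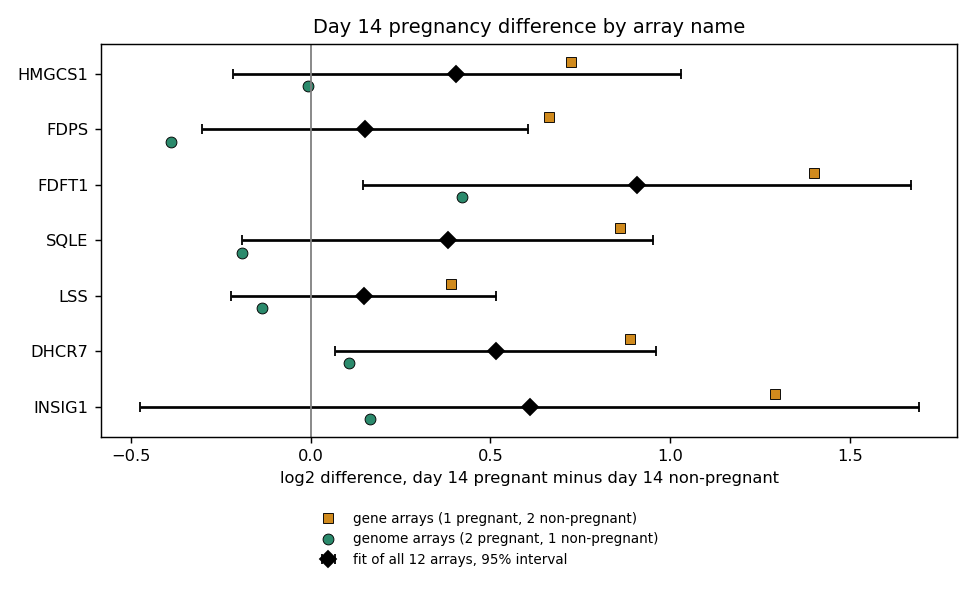
Log2 difference between day 14 pregnant and day 14 non-pregnant glands (horizontal axis) for 7 genes. Black diamonds are the limma fit of all 12 arrays with its 95% interval, orange squares the difference within arrays whose label names a gene array (1 pregnant, 2 non-pregnant) and green circles that within arrays whose label names a genome array (2 pregnant, 1 non-pregnant). All 7 squares lie above 0, between 0.39 and 1.40, while the circles lie between -0.39 and 0.42.

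On day 12 no common direction was seen. Of the 7 genes 3 were above 0, pregnant minus non-pregnant, with a median of -0.08, against 0.01 over all probe sets. No probe set of the 12 passed in limma, and 0% of all probe sets did. At an unadjusted p under 0.05 there were 0 of 12, against 7.69% of all. The smallest adjusted p was 0.669, for a second LSS probe set at 0.22 ± 0.11. Its day 12 pregnant glands, at 5.27, 5.06 and 4.98, lay just above its day 12 non-pregnant glands, at 4.93, 4.90 and 4.83, which made it the 1 of 12 without overlap, where 16.4% of all probe sets had none. The brightest LSS probe set went the other way at -0.13 ± 0.17. FDPS was at 0.33 ± 0.21 and DHCR7 at 0.28 ± 0.20, while FDFT1 was at -0.45 ± 0.35 and INSIG1 at -0.46 ± 0.49.

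Between day 14 and day 12 in non-pregnant ewes, 1 of 7 genes was above 0, with a median of -0.06 against -0.03 over all probe sets. None of the 12 probe sets passed in limma, against 0.391% of all. At an unadjusted p under 0.05 there was 1 of 12, against 11.7%. This was FDFT1, whose difference was -1.13 ± 0.39 (95% interval -1.97 to -0.28, limma adjusted p = 0.272). Groups without overlap numbered 2 of 12, both of them FDFT1 probe sets, against 19.8% of all. INSIG1 was at -0.66 ± 0.55 and HMGCS1 at -0.37 ± 0.31, and the other 4 genes lay between -0.06 and 0.09. All 3 day 12 non-pregnant arrays were labelled genome array, against 1 of the day 14 non-pregnant arrays. These differences therefore lean on the array name term, and FDPS was at -0.225 without it. Within genome arrays, 1 day 14 gland against 3 of day 12, 4 of 7 genes were above 0. Their median was 0.149 (-0.805 to 0.465), with FDFT1 the lowest.

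Between day 14 and day 12 in pregnant ewes, 6 of 7 genes were above 0, with a median of 0.22 against 0.00 over all probe sets. No probe set of the 12 passed in limma, nor did any of the others (0%). At an unadjusted p under 0.05 there were 0 of 12, against 4.43%, and no probe set was without overlap, against 9.90%. INSIG1 had the largest value, 0.41 ± 0.47, and FDPS the only negative one, -0.09 ± 0.20. For SQLE, LSS, DHCR7 and FDFT1 the differences were 0.26 ± 0.25, 0.22 ± 0.16, 0.22 ± 0.20 and 0.23 ± 0.33.

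Whether the pregnancy difference itself differed between the days was tested as an interaction, the day 14 difference minus the day 12 difference. None of the 12 probe sets passed in limma, against 0.0874% of all. At an unadjusted p under 0.05 there was 1 of 12, against 9.42% of all. It was the brightest FDFT1 probe set, at 1.35 ± 0.51 (95% interval 0.24 to 2.47, adjusted p = 0.416, limma). INSIG1 was at 1.07 ± 0.72, and FDPS was the 1 gene of 7 below 0, at -0.18 ± 0.30. For pregnancy averaged over both days, all 7 genes were above 0, with a median of 0.23 against 0.02 over all probe sets. None of the 12 probe sets passed in limma, against 0.866% of all. There were 2 of 12 at an unadjusted p under 0.05, against 14.9% of all, namely the second FDFT1 probe set at 0.45 ± 0.13 and DHCR7 at 0.40 ± 0.14 (adjusted p = 0.130 and 0.206 by limma). These comparisons share groups, so their counts are not separate evidence. A p that misses the threshold does not show that the groups were alike, since the intervals of single genes are wide.

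The spread between glands of a group was wide for most of these genes, by their brightest probe set. The SD pooled over the 4 groups was 0.692 for INSIG1, at the 99.4th percentile of all probe sets. FDFT1 followed with 0.500 (98.2th), HMGCS1 with 0.428 (97.1th), SQLE with 0.398 (96.4th) and FDPS with 0.358 (95.2th). DHCR7 was at 0.278 (90.2th) and LSS at 0.211 (78.1th). The median over the 7 genes was 0.398, against 0.151 over all probe sets. Per group, the median SD of the 7 genes was 0.192 in day 14 pregnant glands and 0.608 in day 14 non-pregnant glands, where the medians over all probe sets were 0.126 and 0.155. It was 0.420 in day 12 pregnant glands and 0.304 in day 12 non-pregnant glands, where the medians over all probe sets were 0.124 and 0.109. These SDs hold no term for array name. The day 12 non-pregnant group had only genome arrays and each other group had both names, so the groups are not fully alike in this. In the day 14 non-pregnant group, gland 1, high for the 6 enzymes, was the only genome array. The part of array name in the spread was not tested. By this median the day 14 pregnant group was the tightest of the 4 for these genes, but not for the array as a whole. Not every gene followed it: the SD of FDFT1 was 0.560 in day 14 pregnant glands, against 0.473 in day 14 non-pregnant glands.

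**Figure D3:**
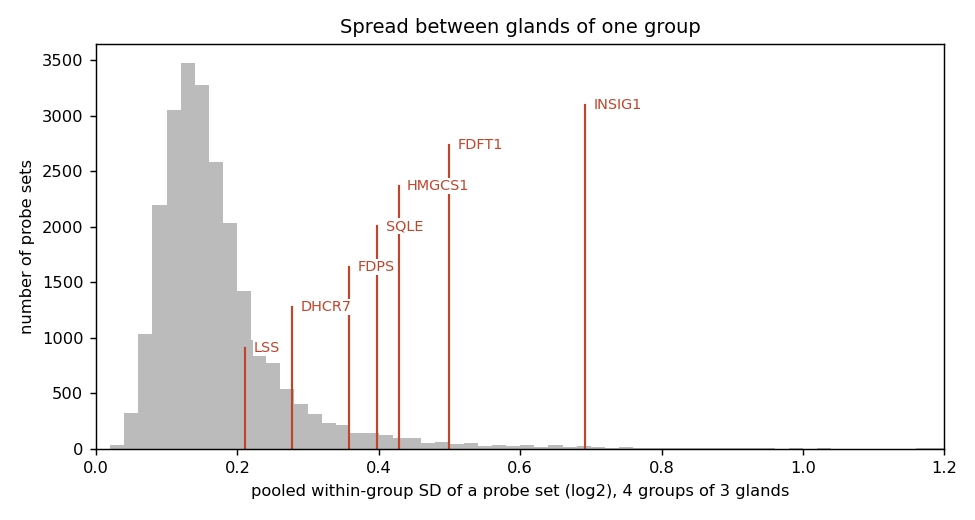
Number of probe sets (vertical axis) by the SD between glands of one group, pooled over 4 groups of 3 (horizontal axis, log2 scale, drawn up to 1.2). Red lines mark the 7 genes by their brightest probe set, at heights that only keep the names apart. LSS, at 0.211, lies within the bulk of the 24016 probe sets and INSIG1, at 0.692, in the far tail.

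Within a group, the same gland tended to be high for all of these genes. Day 12 pregnant gland 1 and day 12 non-pregnant gland 1 were the highest of their group for 7 of 7 genes, and day 14 non-pregnant gland 1 for 6 of 7. Day 12 non-pregnant gland 3 was the lowest for 6 of 7 and day 12 pregnant gland 2 for 5 of 7. The mean deviation of the 7 genes from the group mean was 0.47 in day 12 pregnant gland 1, 0.26 in day 12 non-pregnant gland 1 and 0.49 in day 14 non-pregnant gland 1. The median deviation over all probe sets in these glands was at most 0.01. RMA gives every array the same distribution, so this median lies near 0 in any gland. It does not show that the order of glands is particular to these genes. On principal component 1, day 14 non-pregnant gland 1 also stood apart from glands 2 and 3, at 18.1 against 33.7 and 40.4. The day 14 pregnant group had no such order: gland 1 was the highest for HMGCS1, SQLE and FDFT1 and the lowest for LSS, FDPS and DHCR7.

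**Figure D4:**
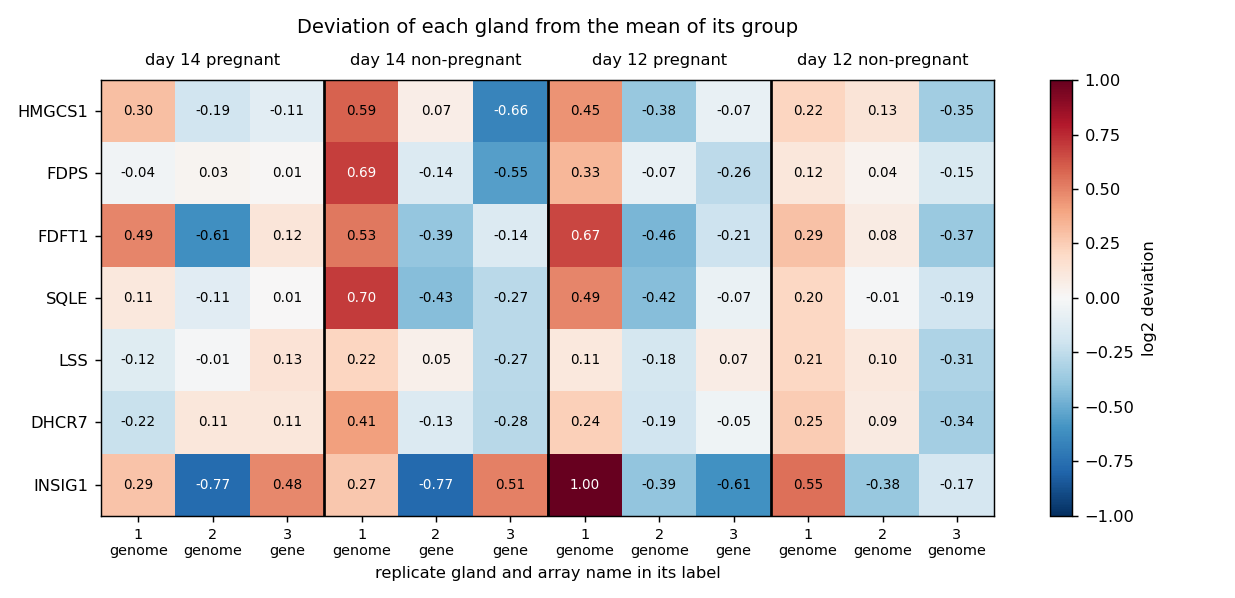
Deviation of each gland (columns, by group, with replicate number and array name) from the mean of its group for 7 genes (rows), on the log2 scale, red above and blue below the group mean. Gland 1 is red for every gene in both day 12 groups and in the day 14 non-pregnant group. The day 14 pregnant columns are mixed.

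Correlations of these deviations were computed for all 21 pairs of the 7 genes over 12 glands. They are a description of these glands, since both genes of a pair come from one array and the genes were chosen with earlier results known. All 21 were above 0, with a median Pearson r of 0.719 (0.151 to 0.897). The highest was between LSS and DHCR7, with r = 0.897 (exact within-group permutation p = 0.00463, adjusted over the 21 pairs 0.0486) and Spearman's rho = 0.909 (p = 0.0054, adjusted 0.0378). SQLE and FDFT1, which catalyse successive steps, had r = 0.852 (p = 0.000772, the smallest this permutation can give, adjusted 0.0162) and rho = 0.881 (p = 0.000772, adjusted 0.0162). FDPS and DHCR7 had r = 0.824 (permutation p = 0.00694, adjusted 0.0486) and rho = 0.860 (p = 0.00463, adjusted 0.0378). The other 18 pairs did not pass. With the 2 glands farthest from the median of the first-named gene left out, r was 0.842, 0.773 and 0.730 for these 3 pairs. Glands that were extreme only for the other gene stayed in. INSIG1 was tied most closely to FDFT1 (r = 0.797, rho = 0.783, permutation p = 0.027 and 0.0262, adjusted 0.0828 and 0.0709) and least to LSS (r = 0.151). The median r of a member with all 8159 genes ranked beside it was 0.03 to 0.08, and its median r with the other members was 0.310 for INSIG1 and 0.639 to 0.801 for the 6 enzymes. Among these 8159 genes, the member most like LSS was DHCR7, ranked 5th, and the member most like DHCR7 was LSS, ranked 11th. For FDFT1 it was SQLE (18th), for HMGCS1 FDPS (24th) and for SQLE FDFT1 (49th). For INSIG1 it was FDFT1 (68th) and for FDPS HMGCS1 (110th).

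Probe sets of one gene did not all follow each other. Over the 12 deviations both HMGCS1 probe sets correlated at 0.829, and the brighter FDFT1 pair at 0.830. The brightest LSS probe set correlated at 0.835 with one other and at 0.266 with the third, which also ran against the second at -0.130. The LSS results above therefore hold for its brightest probe set and not for each of them.

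The genes whose level most resembled the mean of the 7, each scaled to the same SD, were sought over the 12 glands among 8153 other genes. The highest Pearson r was that of FASN, the fatty acid synthase, at 0.945 (rho = 0.909), followed by MVD, the mevalonate diphosphate decarboxylase of the same route, at 0.932 (rho = 0.979). ELOVL6, a fatty acid elongase, followed at 0.881, then CFI, EPAS1 and DPYSL2 at 0.879, 0.871 and 0.866. The most opposite was BAMBI, a decoy receptor of the TGF-beta family, at -0.944 (rho = -0.979), and then ATF7IP and RRAGC at -0.871 and -0.863. The 95th percentile of r over all these genes was 0.615. On deviations from group means, which leave out differences between groups, the 6 highest were ACKR2 (0.964), MVD (0.949), ASF1B (0.948), MRPS27 (0.939), THBD (0.938) and DTX1 (0.930), and the lowest were BAMBI (-0.961), INTS12 (-0.925) and EZH1 (-0.922). MVD and BAMBI were thus at the ends of both rankings.

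The rest of the pathway was read from lists of genes. Of 10 other measured enzymes between acetyl-CoA and cholesterol, 0 passed in limma in any of the 6 comparisons, with 0 of 10 at an unadjusted p under 0.05 for pregnancy on day 14. On day 14 6 of the 10 were above 0, pregnant minus non-pregnant, with a median of 0.10, and the values ran from 0.48 ± 0.36 for MVD to -0.32 ± 0.20 for TM7SF2, a sterol reductase. In deviations between ewes, however, 7 of the 10 had an r with the mean of the 7 genes above 0.676, the 95th percentile of all candidate genes. These were MVD, ACAT2, CYP51A1, EBP, NSDHL, MVK and MSMO1, at 0.686 to 0.949, and the remaining GGPS1, TM7SF2 and PMVK were at 0.521 to 0.529. Of 8 measured genes of fatty acid synthesis bright enough to enter, 5 lay above it, namely FASN (0.921), ELOVL6 (0.861), SCD (0.811), ACLY (0.807) and ACSS2 (0.689), while ACACA was at -0.299. The median r was 0.796 for the cholesterol enzymes and 0.748 for fatty acid synthesis, against 0.0576 over all candidate genes. Of 9 genes of progesterone synthesis 1 lay above it, FDX1, the electron carrier of side-chain cleavage, and of 5 genes of cholesterol uptake and transport 0 did. Of 5 genes of cholesterol storage and efflux 2 did, LIPE at 0.720 and SOAT1 at 0.692, and of 9 genes of other mevalonate branches 1 did, NUS1 at 0.683. Among 8 genes of sterol sensing it was SREBF2 alone, the SREBP that chiefly drives cholesterol synthesis, at 0.744. These values share their glands and arrays, and no test was made of them.

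**Figure D5:**
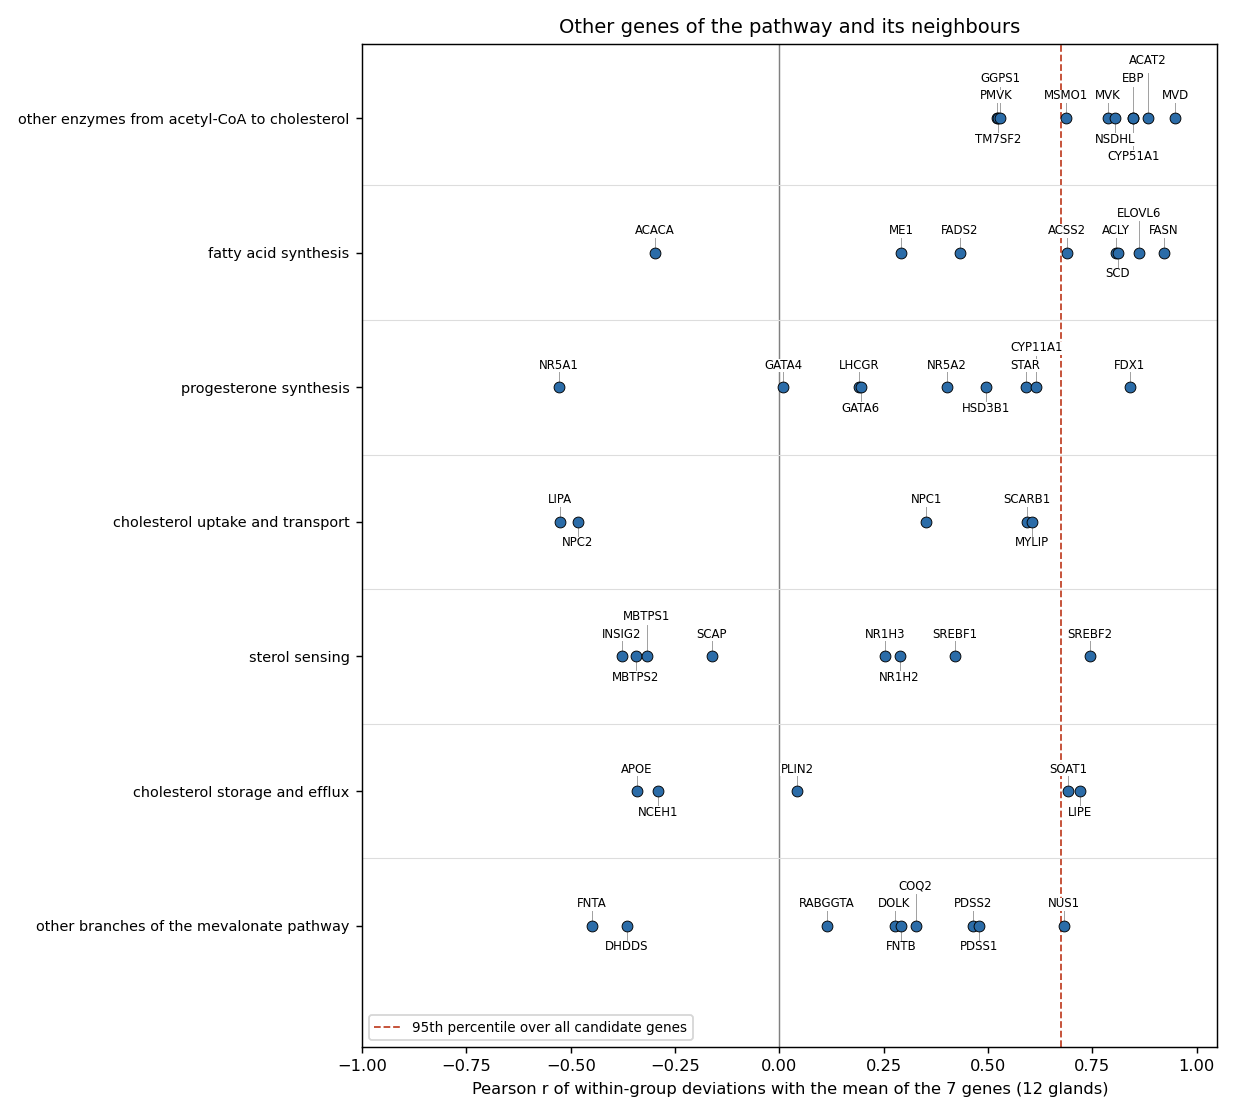
Pearson r over 12 glands between a gene's deviations from its group means and those of the mean of the 7 genes (horizontal axis), for the genes of 7 lists (vertical axis). The dashed line is the 95th percentile over all candidate genes, 0.676. Of the other cholesterol enzymes 7 of 10 and of the fatty acid genes 5 of 8 lie to its right, with 2 of 5 for storage and efflux, 1 of 9 for progesterone synthesis, 1 of 9 for other mevalonate branches, 1 of 8 for sterol sensing and 0 of 5 for uptake and transport.

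Some genes on the lists of cholesterol storage and efflux and of progesterone synthesis did differ between pregnant and non-pregnant glands on day 14. PLIN2, the coat protein of lipid droplets, was at 6.80, 7.03 and 7.30 in day 14 pregnant glands, against 9.64, 9.38 and 10.40 in day 14 non-pregnant glands. SOAT1, which esterifies cholesterol for storage, was at 6.44, 6.52 and 6.11 in day 14 pregnant glands, against 7.46, 7.11 and 6.78 in day 14 non-pregnant glands. Both were lower in pregnant glands, PLIN2 by -2.61 ± 0.39 and SOAT1 by -0.95 ± 0.21 (limma adjusted p = 0.0084 and 0.049), and were 2 of the 5 measured genes of storage and efflux. The SOAT1 call is marginal, since it was kept in 6 of 20 alternative fits, and the PLIN2 call was lost without day 14 pregnant gland 3 (limma adjusted p = 0.0788). Among 9 measured genes of progesterone synthesis, 7 were above 0 on day 14, pregnant minus non-pregnant, and 2 passed, both higher in pregnant glands. In this comparison 55.6% of all genes were above 0, and 1.45% of all probe sets passed. HSD3B1 and CYP11A1, enzymes of the same route, did not pass, at 0.62 ± 0.14 and 0.43 ± 0.10 (limma adjusted p = 0.0556 and 0.0769). STAR, which carries cholesterol into the mitochondrion, was at 13.12, 13.11 and 13.13 in pregnant glands, against 12.68, 12.18 and 12.21 in non-pregnant glands, a difference of 0.74 ± 0.13 (limma adjusted p = 0.0245). NR5A2, a nuclear receptor of steroid-making cells, was at 8.71, 8.71 and 8.50 in pregnant glands, against 7.51, 7.46 and 7.33 in non-pregnant glands, a difference of 1.16 ± 0.12 (limma adjusted p = 0.00148). NR5A2 was also lower in day 14 than in day 12 non-pregnant glands, by -0.86 ± 0.14 (limma adjusted p = 0.0239). In 20 alternative fits the day 14 call was kept in 15 for STAR and in 20 for NR5A2, and the call of NR5A2 between days in 14. The STAR call was lost without any 1 of the day 14 pregnant glands or without day 14 non-pregnant gland 3, with a limma adjusted p of up to 0.162 over its alternatives. For these 4 genes gland 1 of the day 14 non-pregnant group, the one high for the 6 synthesis enzymes, lay on the same side of all day 14 pregnant glands as the others of its group. The 4 genes were named because they passed on these same glands, which largely sets that placement. It is therefore no contrast with the synthesis enzymes, which were not chosen in this way. No gene of sterol sensing or uptake passed in a comparison of 2 groups. The nearest on day 14 were SREBF2 at 0.43 ± 0.12 (adjusted p = 0.105, limma) and SCARB1, the receptor for high-density lipoprotein, at 0.46 ± 0.13 (adjusted p = 0.128, limma). SCARB1 did pass for pregnancy averaged over both days, at 0.45 ± 0.09 (adjusted p = 0.0481, limma). That value lies close to the threshold, and its fate in the alternative fits is not given here. In this comparison 208 of all probe sets passed, and 18 did without day 12 pregnant gland 3.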

How the data were processed

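The deposited table held log2 values of 24128 probe sets, which the authors produced in Affymetrix Expression Console by RMA; this comes from the submitters' processing notes, and no source used here gives the version. The method subtracts background, gives every array the same distribution (quantile normalization) and combines the probes of a probe set, so array medians lay between 5.16 and 5.24, and a change shared by most genes would be removed. Sheep RNA met probes made for cattle, so a difference in level between genes was not read as a result. The choice of the brightest probe set, the level percentiles and the level filter do compare probe sets, and they carry this limit. Values were used as deposited after 112 control probe sets were left out. Symbols came from GEO's platform annotation, which gave 1 symbol to 13292 probe sets, several to 86 and none to 10638. A gene was represented by its brightest probe set.

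Group means and an additive term for array name were fitted with limma 3.58.1 in R 4.3.3 (7 residual degrees of freedom), with two-sided tests and Benjamini-Hochberg adjustment over 24016 probe sets at 0.05. The script was tested on simulated data. Each group was 3 ewes with 1 array each, and this number limits precision. Permutations moved glands within groups in all 1296 arrangements. The genes, lists, naming rule and tests were chosen with earlier results of these data known. Named genes are the 8 members, the genes of each list past the threshold (otherwise those with the smallest p), and the 6 most and 3 least like in pattern among genes above the 25th percentile of mean level. Those that the text names beyond this rule (MVD, ACAT2 and others by their r) were picked after their values were seen. Alternatives changed the array name term, the arrays in the fit, the weights, the centring, the dim filter and the probe set rule; those for the correlations were added after seeing the data.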

Additional observations from a re-analysis of the deposited data

How the results depend on the processing

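No member gene passed the threshold in any of 826 recomputed limma tests, where the smallest adjusted p was 0.0628. The sign of a member's difference changed in 61 of these and within array names in further cases given in the report, so the signs of small differences are not settled. The cause of these changes was not tested. No paired analysis was made, since each array came from a different ewe and the labels give no pairing of ewes.

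Within array names the day 14 median was 0.86 for the gene array arrays and -0.00653 for the genome array arrays. Without the array name term, SQLE turned to -0.0511 for pregnancy on day 12, FDPS to -0.225 for day in non-pregnant ewes and FDPS to 0.137 for the interaction. With array name as a random block these 3 were -0.0605, -0.248 and 0.161. With only the groups compared in the fit, SQLE was -0.0185 on day 12, and SQLE, LSS and DHCR7 were 0.400, 0.149 and 0.289 for day in non-pregnant ewes. With arrays centred on their medians, DHCR7 was 0.028 for day in non-pregnant ewes and LSS -0.00715 for the average. With the mean of a gene's probe sets, LSS was 0.0213 on day 12.

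Each of the 12 arrays was also left out in turn. The median of the 7 genes then lay between 0.124 (without day 14 pregnant gland 3) and 0.746 (without day 14 non-pregnant gland 1) for pregnancy on day 14. It lay between -0.25 and 0.246 on day 12, between -0.598 and 0.0417 for day in non-pregnant ewes, between -0.0373 and 0.321 for day in pregnant ewes, between 0.110 and 0.861 for the interaction and between 0.0765 and 0.350 for the average. Single genes that changed sign had these ranges. For pregnancy on day 14 they were FDPS (-0.173 to 0.528) and INSIG1 (-0.00383 to 0.988), and on day 12 HMGCS1 (-0.282 to 0.246) and SQLE (-0.157 to 0.425). For day in non-pregnant ewes they were SQLE (-0.598 to 0.0852), LSS (-0.328 to 0.0417), FDPS (-0.383 to 0.25) and DHCR7 (-0.375 to 0.120). For day in pregnant ewes they were HMGCS1 (-0.160 to 0.293), SQLE (-0.0373 to 0.461), FDFT1 (-0.0775 to 0.616), FDPS (-0.330 to 0.0181) and INSIG1 (-0.0505 to 0.919). For the interaction they were SQLE (-0.0938 to 0.861), FDPS (-0.580 to 0.295) and DHCR7 (-0.0534 to 0.598), and for the average LSS (-0.0719 to 0.0855) and INSIG1 (-0.182 to 0.300).

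The number of all probe sets past the threshold also moved: 348 for pregnancy on day 14 became 24 with only the groups compared and 531 without the array name term, and 88 without day 14 pregnant gland 3. For day in non-pregnant ewes 94 became 1 and, with array name as a random block, 462. The call of NR5A2 on day 14 held in 20 of 20 alternatives (adjusted p up to 0.0258), of PLIN2 in 19, of STAR in 15 and of SOAT1 in 6 (up to 0.0788, 0.162 and 0.185), and that of NR5A2 between days in 14 (up to 0.196). Leaving out day 14 pregnant gland 3 ended the PLIN2 call, leaving out any day 14 pregnant gland or day 14 non-pregnant gland 3 ended that of STAR, and leaving out day 12 non-pregnant gland 2 or 3, day 14 non-pregnant gland 1, or gland 3 of either pregnant group ended that of NR5A2 between days. The SOAT1 call was lost in 10 of 12 such runs. The median r over member pairs stayed between 0.595 and 0.809 in all alternatives tried, which were chosen after seeing the data.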
